A study of Mus musculus with 12 samples.

Results

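A set of 10 genes encoding the potassium channels, calcium channels and calcium store proteins of vascular smooth muscle were followed in total RNA of mouse vessels over a week of angiotensin II. The members were chosen by name: Kcnmb1, Kcnma1, Kcnj8, Abcc9, Cacna1c, Cacnb2, Ryr2, Itpr1, Pln and Casq2. Of these 10, 9 had a transcript cluster (a probe set that covers 1 gene) annotated with their symbol alone, among 30702 genes in all, and Itpr1 was not analysed here. Each of the 9 had 1 such cluster. The vessels came from male C57BL/6 mice, 8 to 10 weeks old, in 4 groups with 3 arrays each. One group was untreated (day 0), and the others had received angiotensin II for 1, 3 or 7 days through an osmotic pump that delivered 1500 ng per kg in each minute. Day 0 mice carried no pump as far as the labels say, so pump surgery and angiotensin II cannot be told apart, and the labels name neither the vessel nor how much surrounding tissue was taken. The arrays are called biological replicates, but it is not stated that each held RNA of 1 animal, so p-values measure the spread between these samples. Values are log2 signals, on which a difference of 1 is a doubling, and signals of different genes are not compared.

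Smooth muscle tone follows the calcium level of the cell. Calcium enters through L-type channels, whose pore is the product of Cacna1c and whose auxiliary beta subunit comes from Cacnb2, and it is released from the sarcoplasmic reticulum through ryanodine receptors (Ryr2) and inositol trisphosphate receptors (Itpr1). Large-conductance calcium-activated potassium (BK) channels, made of the pore Kcnma1 and the accessory subunit Kcnmb1 that raises their calcium sensitivity, answer local calcium release with potassium efflux and so limit constriction. ATP-sensitive potassium (KATP) channels of vascular muscle pair the pore Kcnj8 with the sulfonylurea receptor Abcc9, and vasodilators open them. Phospholamban (Pln) restrains the reticulum's calcium pump, and calsequestrin (Casq2) binds calcium inside the store, chiefly in heart. Most of these genes are also active in cardiac muscle.

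Promoter windows (250 bases before to 50 after the annotated start) were matched for 9 of the 10 genes in RefSeq, build GRCm38.p6, which also lists Kcnj8 and Abcc9 as neighbours on chromosome 6. The windows shown are those of Kcnmb1, which had the largest change, of Abcc9 and Kcnj8, which encode both parts of 1 channel, and of Pln and Casq2, the genes called higher at day 7. They lie at chr11:33962763-33963062, plus strand (Kcnmb1), chr6:142702225-142702524, minus strand (Abcc9), chr6:142571565-142571864, minus strand (Kcnj8), chr10:53337436-53337735, plus strand (Pln) and chr3:102086165-102086464, plus strand (Casq2). Capitals mark a match to the MEF2 site, a motif of muscle genes that reads the same way on both strands.
Kcnmb1: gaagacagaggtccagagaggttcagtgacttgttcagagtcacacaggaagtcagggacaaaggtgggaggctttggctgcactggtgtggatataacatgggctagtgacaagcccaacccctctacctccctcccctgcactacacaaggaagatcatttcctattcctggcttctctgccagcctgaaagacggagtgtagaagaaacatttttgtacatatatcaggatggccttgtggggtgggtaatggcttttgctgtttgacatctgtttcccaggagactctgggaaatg
Abcc9: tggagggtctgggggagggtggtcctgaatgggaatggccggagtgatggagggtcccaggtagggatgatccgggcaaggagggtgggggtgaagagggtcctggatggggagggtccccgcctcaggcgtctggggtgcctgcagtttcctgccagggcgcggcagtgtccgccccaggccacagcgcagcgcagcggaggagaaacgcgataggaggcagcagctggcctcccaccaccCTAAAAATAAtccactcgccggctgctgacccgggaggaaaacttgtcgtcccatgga
Kcnj8: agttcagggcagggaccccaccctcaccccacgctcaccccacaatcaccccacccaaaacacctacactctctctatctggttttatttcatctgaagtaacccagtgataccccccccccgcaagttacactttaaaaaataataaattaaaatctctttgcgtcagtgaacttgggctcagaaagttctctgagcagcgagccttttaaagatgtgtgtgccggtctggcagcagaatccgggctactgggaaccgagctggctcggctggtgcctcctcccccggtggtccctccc
Pln: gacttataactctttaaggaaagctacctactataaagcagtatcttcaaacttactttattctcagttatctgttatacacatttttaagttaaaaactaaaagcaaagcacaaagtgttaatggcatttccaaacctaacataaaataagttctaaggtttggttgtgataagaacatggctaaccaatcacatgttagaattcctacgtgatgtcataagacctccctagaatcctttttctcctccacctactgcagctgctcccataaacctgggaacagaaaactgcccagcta
Casq2: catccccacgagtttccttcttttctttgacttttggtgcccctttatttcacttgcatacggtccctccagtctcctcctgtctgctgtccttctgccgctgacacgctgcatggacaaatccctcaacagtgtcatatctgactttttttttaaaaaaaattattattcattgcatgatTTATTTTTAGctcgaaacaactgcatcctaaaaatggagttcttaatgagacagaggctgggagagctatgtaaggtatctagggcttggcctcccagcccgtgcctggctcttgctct
The match begins at -8 in Abcc9 and at -69 in Casq2, counting the first base of the transcript as 0. These were the 2 of 12 windows of the 9 genes with a MEF2 match, where 3.19% of all 32851 windows had one. The SRF CArG box, the motif of contractile genes, had an exact match in 0 of the 12 windows and in 1.63% of all windows. Such a match is a description of letters and not a bound site, and its absence says only that these letters are not in this window.

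A few facts of the arrays bear on all values. The median of the positive minus that of the negative control features, a measure of signal over background, was 2.56 to 2.64 at day 0, 1.94 to 2.51 at day 1, 1.83 to 2.11 at day 3 and 1.20 to 2.10 at day 7, so every treated array lay below every day 0 array (exact two-sided permutation test, p = 0.1 for each day, the smallest that 3 against 3 allow). The negative control median itself lay between 5.91 and 6.14 on the 12 arrays, and a signal near or under it is close to background. Among tested genes with a mean signal of 5 to 6 the median change at day 7 was 0.25, and among those of 10 to 12 it was -0.36. Pearson r between arrays of 1 group was 0.969 to 0.993, and no pair was a duplicate. All 9 genes passed the filter on dim signals (3 of 12 arrays at 5.25 or more), 8 of them on all 12 arrays. Casq2 passed only through 1 day 3 array and the 3 day 7 arrays, so its being tested depended on the groups where it was high.

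The BK channel genes had fallen by day 3 and were low at day 7. Kcnmb1, the accessory subunit, gave signals of 12.00, 12.00 and 11.39 at day 0, 9.35, 10.14 and 10.87 at day 1, 9.36, 9.31 and 8.52 at day 3 and 7.15, 6.42 and 8.13 at day 7. Every treated array lay below every day 0 array, and the day 7 arrays lay below all those of days 1 and 3. At day 7 it averaged 7.23 ± 0.86 against 11.80 ± 0.35 at day 0 (SD, n = 3 each), a log2 change of -4.57 ± 0.49 (± SE from limma, as for all later changes) or 23.7-fold lower, with limma adjusted p = 0.00104. At day 3 the change was -2.74 ± 0.49 (adjusted p = 0.0104 in limma), and at day 1 it was -1.68 ± 0.49 and missed the threshold of 0.05 (adjusted p = 0.0991). Kcnma1, the pore, stood at 9.46, 9.69 and 9.80 at day 0, 7.53, 8.26 and 8.84 at day 1, 7.84, 7.73 and 7.26 at day 3 and 6.86, 8.16 and 7.92 at day 7. Its treated arrays were all below the day 0 arrays, while days 1, 3 and 7 overlapped. Kcnma1 changed by -2.04 ± 0.38 at day 3 (4.12-fold lower, adjusted p = 0.0128) and -2.01 ± 0.38 at day 7 (adjusted p = 0.0075), and by -1.44 ± 0.38 at day 1 (adjusted p = 0.0763, all in limma). The day 3 call of Kcnma1 was lost without day 0 replicate 3 or day 3 replicate 3 (adjusted p up to 0.058), and its day 7 change was -0.66 with the positive minus negative control difference as a covariate (adjusted p = 0.168). In bulk RNA, fewer smooth muscle cells and less channel RNA per cell cannot be told apart, here and below.

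**Figure D1:**
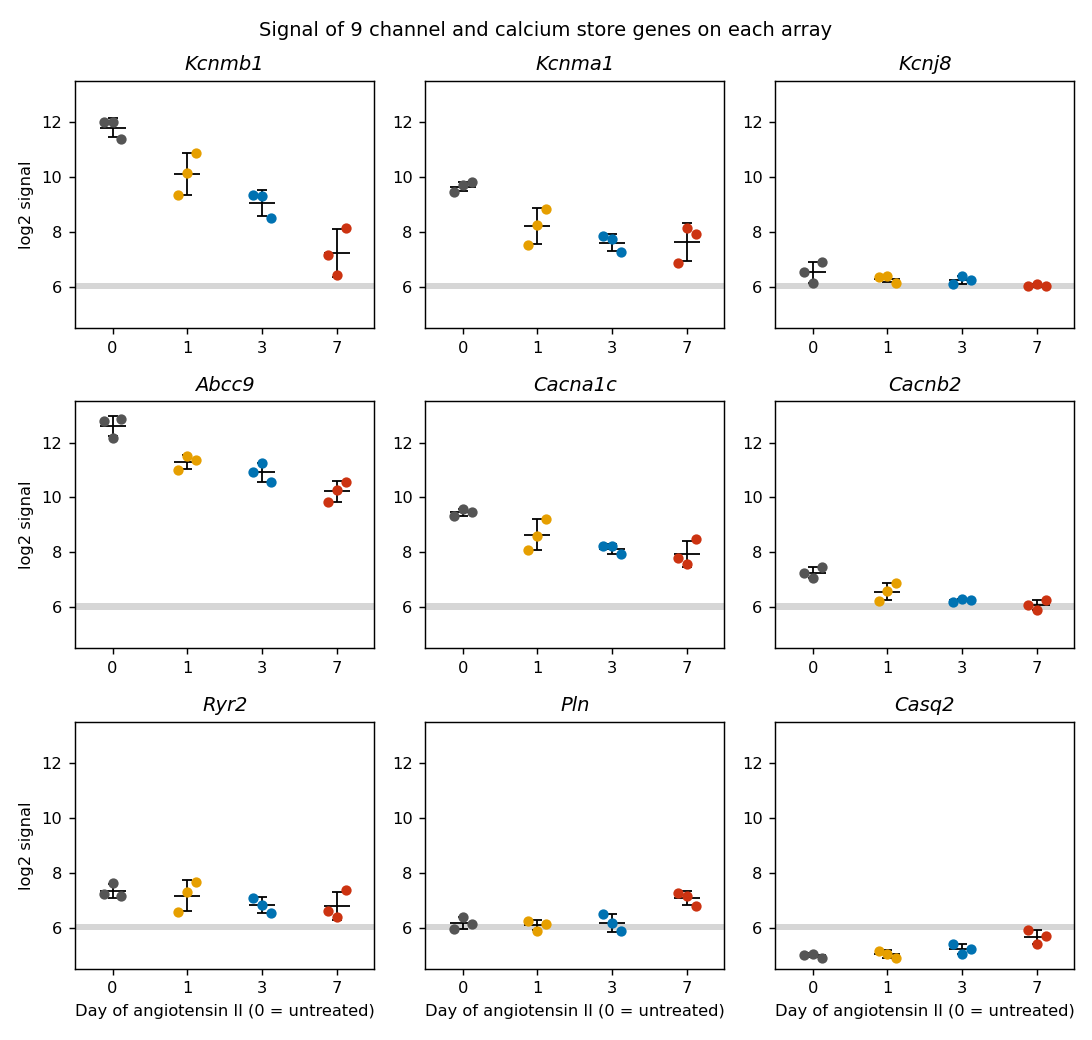
Each panel plots the log2 signal of 1 gene (vertical axis) on the 3 arrays of days 0, 1, 3 and 7 of angiotensin II (horizontal axis), with the mean and SD as black bars and the range of the negative control medians (5.91 to 6.14) as a grey band. Kcnmb1 moves from near 12 towards the band, Kcnj8, Cacnb2, Pln and Casq2 lie close to or under it on some or all arrays, and Pln and Casq2 are higher at day 7.

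The signal change of the accessory subunit was larger than that of the pore at day 7, at an exact permutation p of 0.1. On each array the Kcnmb1 signal minus the Kcnma1 signal, a quantity read only for its change, lay at -1.74 to 0.29 at day 7 and at 1.59 to 2.53 at day 0, a mean change of -2.56. At day 3 the range was 1.25 to 1.58, also below day 0, with a mean change of -0.69, and at day 1 the arrays overlapped with day 0 (1.82 to 2.03, mean change -0.24). The exact two-sided permutation p was 0.1 at days 7 and 3, the smallest that 3 against 3 arrays allow, and 0.5 at day 1. One array, day 7 replicate 2, gave the lowest value, and the other 2 day 7 arrays were also below day 0. Kcnma1 began nearer to background (mean of 9.65 at day 0, against 11.80 for Kcnmb1) and had less room to fall. The difference is therefore a statement on these signals and not on the RNA ratio.

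The KATP channel genes differed in the size of their change. Abcc9, the sulfonylurea receptor, gave 12.77, 12.19 and 12.85 at day 0, 10.997, 11.51 and 11.36 at day 1, 10.93, 11.26 and 10.56 at day 3 and 9.82, 10.27 and 10.58 at day 7. Its treated arrays were all below the day 0 arrays. It was the single gene of the 9 called at every day, at -1.31 ± 0.26 (adjusted p = 0.0293), -1.68 ± 0.26 (adjusted p = 0.00673) and -2.38 ± 0.26 (5.2-fold lower, adjusted p = 0.00112) for days 1, 3 and 7 in limma. The day 1 call was lost in 4 of 12 fits that left out 1 array (without day 0 replicate 1 or 3, or day 1 replicate 1 or 2, adjusted p up to 0.116) and after quantile normalization (adjusted p = 0.102).

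Kcnj8, the pore that pairs with Abcc9, was dim throughout, at 6.54, 6.14 and 6.90 at day 0, 6.35, 6.40 and 6.15 at day 1, 6.10, 6.38 and 6.27 at day 3 and 6.02, 6.11 and 6.02 at day 7. The highest day 7 array lay just under the lowest day 0 array, and 2 of the day 7 arrays were under the negative control median. Its change at day 7 was -0.48 ± 0.17 and did not pass in limma (adjusted p = 0.0623), but it passed when the arrays were quantile normalized (-0.68, adjusted p = 0.0138), when they were centred by the median (-0.75, adjusted p = 0.0131) and without day 0 replicate 2 (-0.67, adjusted p = 0.018). The call of Kcnj8 at day 7 therefore depends on the scaling and on 1 array. Changes at the earlier days did not pass, at -0.22 ± 0.17 at day 1 (adjusted p = 0.629) and -0.28 ± 0.17 at day 3 (adjusted p = 0.304). Abcc9 minus Kcnj8 on each array was 3.80 to 4.56 at day 7 and 5.95 to 6.23 at day 0, a mean change of -1.90 (exact two-sided permutation p = 0.1). A signal this near background compresses a fall, so the difference between both genes is a statement on these signals and not on the RNA ratio.

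**Figure D2:**
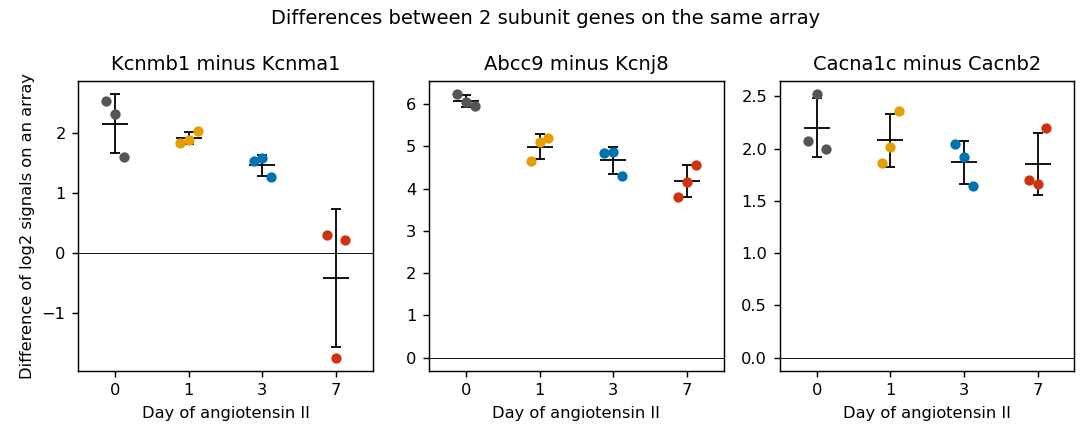
Each panel plots, for the 3 arrays of each day (horizontal axis, days of angiotensin II), the difference between the log2 signals of 2 genes on the same array (vertical axis), with the mean and SD as black bars. Kcnmb1 minus Kcnma1 is lowest at day 7 (-1.74 to 0.29), Abcc9 minus Kcnj8 is below day 0 on all treated arrays, and Cacna1c minus Cacnb2 overlaps between days.

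The L-type channel genes fell together by day 3. Cacna1c, the pore, had signals of 9.33, 9.58 and 9.47 at day 0, 8.09, 8.61 and 9.23 at day 1, 8.24, 8.22 and 7.92 at day 3 and 7.79, 7.57 and 8.47 at day 7. Day 1 replicate 3 lay just under the lowest day 0 array, and the other treated arrays lay further below. Cacna1c changed by -0.81 ± 0.29 at day 1 (adjusted p = 0.187), -1.33 ± 0.29 at day 3 (adjusted p = 0.0212) and -1.51 ± 0.29 at day 7 (2.86-fold lower, adjusted p = 0.00784, limma). The day 3 call was lost without any 1 of the 3 day 0 arrays and without day 3 replicate 2 or 3 (adjusted p up to 0.0866). Cacnb2, the beta subunit that carries the pore to the membrane, had 7.25, 7.06 and 7.47 at day 0, 6.23, 6.60 and 6.87 at day 1, 6.20, 6.30 and 6.28 at day 3 and 6.09, 5.91 and 6.28 at day 7. All treated arrays were below day 0, and 2 of the 3 day 7 arrays were under the negative control median, so the size of the fall there is approximate. It changed by -0.70 ± 0.17 at day 1 (adjusted p = 0.0547), -1.0 ± 0.17 at day 3 (adjusted p = 0.00836) and -1.17 ± 0.17 at day 7 (adjusted p = 0.00237, limma). Cacna1c minus Cacnb2 overlapped with day 0 on each day, at 1.66 to 2.20 at day 7 and 2.00 to 2.52 at day 0 (exact two-sided permutation p = 0.3).

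None of the 3 calcium store genes passed the test as lower on any day. Pln rose at day 7, and Casq2 was called higher from signals under background on all arrays. Ryr2, the ryanodine receptor that releases calcium in sparks, gave 7.22, 7.64 and 7.16 at day 0, 6.56, 7.29 and 7.65 at day 1, 7.10, 6.82 and 6.53 at day 3 and 6.59, 6.38 and 7.36 at day 7. The day 7 and day 0 arrays overlapped, and so did those of day 1, while the day 3 arrays lay just below. Its changes of -0.17 ± 0.32, -0.52 ± 0.32 and -0.56 ± 0.32 at days 1, 3 and 7 did not pass in limma (adjusted p = 0.918, 0.307 and 0.201).

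Pln, the inhibitor of the calcium pump, had 5.97, 6.39 and 6.12 at day 0, 6.25, 5.89 and 6.15 at day 1, 6.51, 6.15 and 5.86 at day 3 and 7.27, 7.16 and 6.79 at day 7. All day 7 arrays were above the 9 others, and 1 array of each earlier day was under the negative control median. At day 7 Pln averaged 7.07 ± 0.25 against 6.16 ± 0.21 at day 0 (SD, n = 3 each) and rose by 0.91 ± 0.19 (1.89-fold, limma adjusted p = 0.0111), while at days 1 and 3 it changed by -0.07 ± 0.19 and 0.02 ± 0.19 (adjusted p = 0.967 and 0.971). Casq2, the calcium buffer of the store, stood at 5.02, 5.04 and 4.90 at day 0, 5.17, 5.04 and 4.88 at day 1, 5.41, 5.04 and 5.23 at day 3 and 5.92, 5.41 and 5.68 at day 7. Its day 7 arrays were above all arrays of days 0 and 1, and all 12 arrays were under the negative control median. The change of Casq2 was 0.68 ± 0.14 at day 7 (limma adjusted p = 0.0101), but the gene was tested only because its day 3 and day 7 arrays passed the filter, so this call is not given as support. It stood at 0.04 ± 0.14 at day 1 and 0.24 ± 0.14 at day 3 (adjusted p = 0.973 and 0.285). Tested genes of 5 to 6 had a median change of 0.25 at day 7, and 13.6% of them rose. When the arrays were quantile normalized or centred by the median, the change of Casq2 was 0.41 in each case and did not pass (adjusted p = 0.0519 and 0.0593), while Pln still passed (0.79 and 0.64, adjusted p = 0.0261 and 0.0341).

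**Figure D3:**
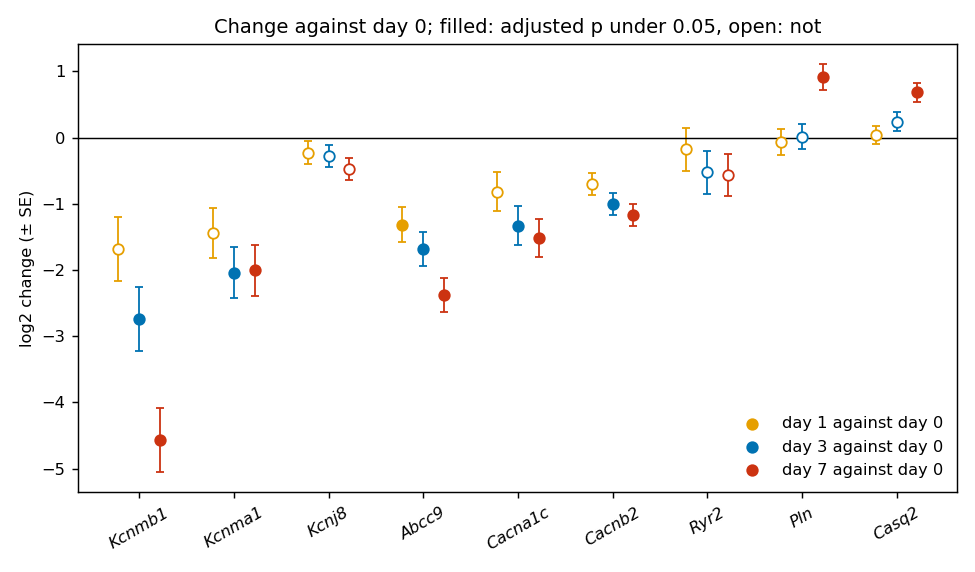
Points give the log2 change against day 0 with its SE (vertical axis) for each gene (horizontal axis) at days 1, 3 and 7, filled where the limma adjusted p was under 0.05 and open where it was not. Kcnmb1 reaches -4.57 at day 7, Abcc9 is filled at all 3 days, and Pln and Casq2 are filled above 0 at day 7.

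Counted together, 1 of the 9 genes fell and 0 rose at day 1. Of the 22066 tested genes, 1.63% fell, 1.99% rose and 3.62% were called in either direction. At day 1, 5 of the 9 had an unadjusted p under 0.05 in limma. The share of all tested genes at that unadjusted threshold was not counted, so such counts, here and below, are not given as support. At day 3, 5 fell and 0 rose, against 7.14% and 4.61% of all tested genes and 11.8% called in either direction. At day 7, 5 fell and 2 rose, against 13.2% and 12.1% of all and 25.2% called in either direction. Falls were more frequent among brighter genes. Of tested genes with a mean signal of 8 to 10, 14.1% fell at day 3 and 26.4% at day 7. Of those of 10 to 12, 14.8% and 29.7% fell. Kcnmb1 (9.55), Kcnma1 (8.28), Cacna1c (8.54) and Abcc9 (11.26) had means in these ranges, so the shares of all are low for them. Cacnb2 (6.55) lay among genes of 6 to 7, of which 6.27% and 9.92% fell. Without Casq2, which was tested only through arrays where it was high, 1 of the other 8 genes rose at day 7. The median change of the 9 was -0.70, -1.0 and -1.17 at days 1, 3 and 7, and that of all tested genes was 0.01, 0.08 and 0.09. Arrays did not overlap, and were lower than day 0, for 5, 6 and 6 genes at days 1, 3 and 7, where 11.5%, 21.4% and 20.5% of all tested genes did the same. They were higher with no overlap for 0, 1 and 2 genes, against 11.8%, 23.3% and 26.6% of all. The 1 at day 3 was Casq2, and the 2 at day 7 were Pln and Casq2. The F test over days 1, 3 and 7 passed for 7 of the 9 genes (14.6% of all), the exceptions being Kcnj8 (adjusted p = 0.214) and Ryr2 (adjusted p = 0.412). Casq2 is among these 7 (F test adjusted p = 0.02955), and no count of Casq2 is given as support. The 3 comparisons share the day 0 arrays, so these counts are not independent of one another. With the difference between positive and negative controls as a covariate, 2 of the 7 day 7 calls held, those of Kcnmb1 (-3.66, adjusted p = 0.0336) and Abcc9 (-1.77, adjusted p = 0.0331). With the mean of the adipocyte markers as a covariate, 0 of the 5 day 3 calls and 7 of the 7 day 7 calls held, that of Casq2 among the latter.

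Between treated days, limma called 0 of the 9 genes for day 3 against day 1 (0 also at an unadjusted p under 0.05), where 0.0% of all tested genes were called. For day 7 against day 3 it called 0 of 9, with 0.267% of all called, and 4 had an unadjusted p under 0.05. These were Kcnmb1 (-1.83 ± 0.49, adjusted p = 0.163), Abcc9 (-0.69 ± 0.26, adjusted p = 0.308), Pln (0.90 ± 0.19, adjusted p = 0.105) and Casq2 (0.44 ± 0.14, adjusted p = 0.235). Day 7 differed from day 1 for 3 genes, where 4.79% of all did (1.88% rose and 2.91% fell): Kcnmb1 was lower by -2.89 ± 0.49 on the log2 scale (adjusted p = 0.0212), and Pln and Casq2 were higher by 0.98 ± 0.19 (adjusted p = 0.0308) and 0.64 ± 0.14 (adjusted p = 0.0399). Casq2 was tested only through arrays where it was high, so its call is not given as support. Kcnma1 stood at -0.56 ± 0.38 in the same comparison (adjusted p = 0.332).

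As a list, smooth muscle markers moved with the channel genes. Of 15 such markers, 1 fell at day 1, 8 at day 3 and 14 at day 7, with median changes of -1.32, -2.33 and -3.72. Of all tested genes, 1.63%, 7.14% and 13.2% fell on these days. The mean of the 14 markers below the ceiling of the scale was 12.31 to 12.61 at day 0, 10.20 to 12.07 at day 1, 9.63 to 10.74 at day 3 and 7.52 to 9.63 at day 7, so every treated array was below every day 0 array. Acta2, smooth muscle actin, sat at the ceiling of 19.93 on 7 of 12 arrays and was high in every day 0 vessel. It averaged 19.93 at day 1 and 19.75 at day 3, so the ceiling limits what its early changes show. Tagln, another of the 15, changed by -0.31 and -0.83 at days 1 and 3 (limma adjusted p = 0.949 and 0.447). Against this marker mean on the same array, Kcnmb1 changed by -0.21, -0.43 and -0.65 at days 1, 3 and 7, Kcnma1 by 0.02, 0.26 and 1.91, and Abcc9 by 0.15, 0.62 and 1.54. At days 1 and 3 the arrays of these 3 genes overlapped with day 0. At day 7 Kcnmb1 was lower (-1.50 to -1.10 against -1.07 to -0.32 at day 0) and Kcnma1 and Abcc9 were higher, with no overlap (exact two-sided permutation p = 0.1 each, the smallest possible). Cacna1c changed by 0.65, 0.97 and 2.40 against the marker mean at days 1, 3 and 7. It was higher than day 0 with no overlap on each day (exact two-sided permutation p = 0.1 each). Kcnma1 and Cacna1c averaged 9.65 and 9.46 at day 0, and the negative control median was 5.91 to 6.14. The marker mean averaged 12.46 at day 0 and 8.54 at day 7. On average, even a fall to background would leave both genes higher against it at day 7. No conclusion is therefore drawn from their day 7 differences. Kcnj8, Cacnb2, Ryr2, Pln and Casq2 are dimmer and have little room to fall. For them this difference would mostly restate the fall of the markers, and it is not given. What part the marker change has in the change of the channel genes was not tested.

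Markers of striated muscle moved at day 7 beside Pln and Casq2. Of 11 tested cardiac markers 7 rose at day 7, where 12.1% of all tested genes rose, and 0 were called at days 1 and 3. The mean of the cardiac list was 6.20 to 6.53 at day 7 and 5.48 to 5.61 at day 0, and 6 of its 14 measured genes were under the negative control median on all 12 arrays. Myh6, the atrial and mouse ventricular myosin heavy chain, gave 7.92, 7.77 and 7.96 at day 7 and 5.30, 5.44 and 5.21 at day 0. The troponin T gene of heart, Tnnt2, rose by 1.91 and the atrial light chain Myl7 by 1.51 (adjusted p = 0.000691 and 0.000869 in limma). Of 15 skeletal muscle markers, 5 were under the negative control median on all 12 arrays, 5 were not tested, and 7 of the 10 tested rose at day 7. Of these 7, 3 (Myh1, Myh4 and Mylpf) passed the filter only with the day 7 arrays, so the count is not given as support. Myh4, a fast myosin and 1 of these 3, gave 5.46, 6.34 and 6.20 at day 7 and 4.93, 4.90 and 5.44 at day 0. It was under the negative control median on 10 of 12 arrays, and day 7 replicate 1 lay just above day 0 replicate 3. Its values are not given as support either. Pln and Casq2 are active in both kinds of muscle, and the part of striated muscle tissue in their change was not tested.

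A further pair of store genes of striated muscle were singled out after their values were seen. They were the only 2 called higher at day 7 among 22 tested genes of the calcium store, of which 9 fell. Casq1 (-2.24) and Jph2 (-1.90) were among those 9. Sarcolipin (Sln), a small inhibitor of the calcium pump that is also on the cardiac list, gave 6.94, 7.23 and 6.70 at day 7 and 6.05, 6.17 and 6.38 at day 0, a rise of 0.76 (limma adjusted p = 0.0152). Triadin (Trdn), which anchors calsequestrin to the ryanodine receptor, gave 6.67, 7.17 and 6.94 at day 7 and 5.80, 5.78 and 6.05 at day 0, a rise of 1.05 (limma adjusted p = 0.00246). Both were higher on every day 7 array than on any of the 9 other arrays.

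**Figure D4:**
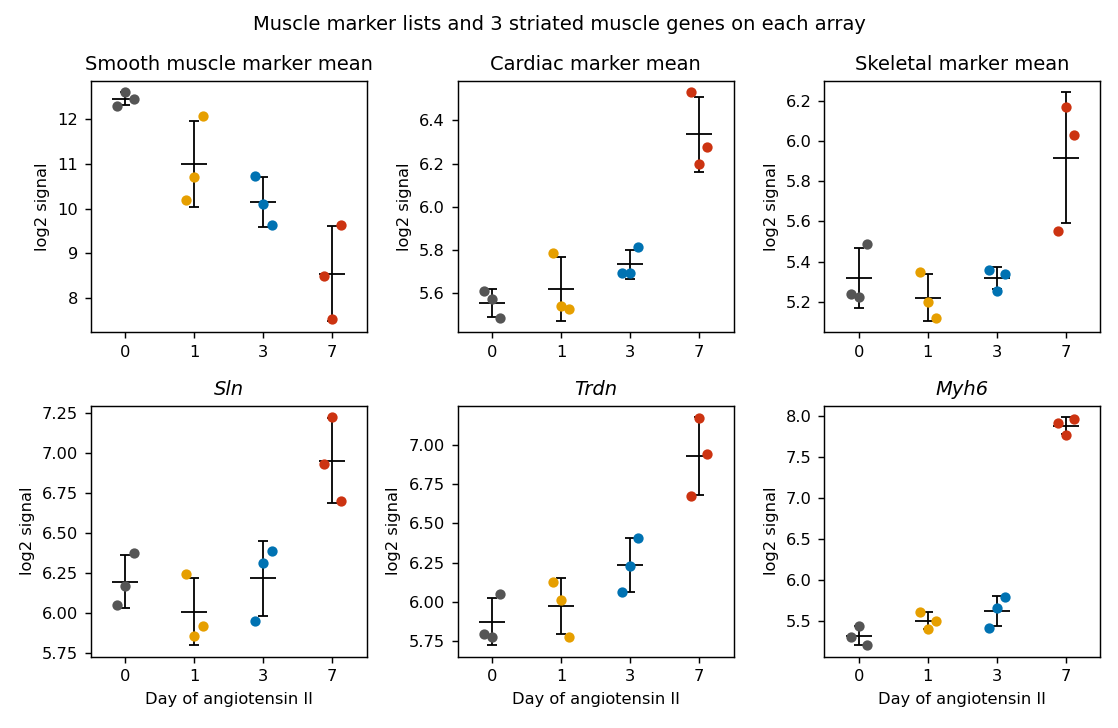
The panels plot the log2 signal (vertical axis, a different range in each) on the 3 arrays of days 0, 1, 3 and 7 (horizontal axis) for the mean of the smooth muscle, cardiac and skeletal marker lists and for Sln, Trdn and Myh6, with mean and SD as black bars. The smooth muscle mean is 7.52 to 9.63 at day 7 against 12.31 to 12.61 at day 0, while Sln, Trdn and Myh6 are highest on the 3 day 7 arrays.

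Of the other cell types, macrophage markers rose in 8, 10 and 11 of 12 at days 1, 3 and 7, and brown adipocyte markers fell in 4, 4 and 3 of 11 tested, with 1 rise at days 1 and 3. Of all tested genes, 1.99%, 4.61% and 12.1% rose and 1.63%, 7.14% and 13.2% fell at days 1, 3 and 7. White adipocyte markers gave 0, 1 and 0 falls among 11, and 1 rise at day 7. Endothelial markers gave 1 fall among 11, at day 7. The calls of white adipocyte and endothelial markers are near or below the shares of all. Pericyte markers, a cell type in which Kcnj8 and Abcc9 are active, gave 0, 1 and 4 falls among 11 and 1 rise at day 7. The 1 that rose, Higd1b, was under the negative control median on all 12 arrays. It passed the filter only with the day 7 arrays, so its rise is not given as support. Neuron and Schwann cell markers gave 0 calls among 10 at each day in limma, with 0, 0 and 2 of the 10 at an unadjusted p under 0.05 at days 1, 3 and 7.

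Other potassium channel genes were mostly dim and mostly not called. Of 28 listed, 25 were measured, 16 of them under the negative control median on all 12 arrays, and 17 passed the filter. Of these 17, 2 fell at day 1, 3 fell and 1 rose at day 3, and 3 fell and 2 rose at day 7. These 5 calls of 17 stand beside 25.2% of all tested genes called at day 7, a share near the background, and Kcnk2, 1 of the 2 that rose, passed the filter only with the day 7 arrays. Kcnab1, a beta subunit of voltage-gated potassium channels, gave 6.53, 6.04 and 6.86 at day 7 and 9.66, 9.84 and 10.05 at day 0, a log2 change of -3.38 (limma adjusted p = 0.000819). Kcnh2, the pore of the ERG channel, changed by -0.87 at day 7, and Kcnq5, a voltage-gated channel of vascular muscle, by -0.61 at day 3. Kcnh2 was under the negative control median on 8 of 12 arrays, so the size of its fall is approximate. Kcnk6, a background potassium channel, rose by 0.61 at day 3 (adjusted p = 0.0364, limma).

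Genes that build or restrain calcium channels fell in 4 of 9 tested on each of the 3 days, out of 14 measured and 17 listed. Of all tested genes, 1.63%, 7.14% and 13.2% fell at days 1, 3 and 7. Rrad, a small GTPase that inhibits L-type channels, gave 5.97, 5.89 and 6.80 at day 7 and 9.05, 8.93 and 9.66 at day 0, a change of -2.99. The related inhibitor Gem changed by -1.41 at day 1. Cacna2d1, the extracellular auxiliary subunit, changed by -2.05 at day 7 and Cacna1d, another L-type pore, by -0.62 at day 1. The same 4 genes were called at days 1, 3 and 7, and the median change of the list was -0.06 at day 7.

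Among 22 tested genes of the calcium store (26 measured, 29 listed), 1 fell at day 1, 5 at day 3 and 9 at day 7, when 2 rose. Of all tested genes, 1.63%, 7.14% and 13.2% fell on these days and 12.1% rose at day 7, so the 2 rises are not above that share. Atp2a2, the calcium pump that phospholamban inhibits, gave 11.60, 12.46 and 12.48 at day 7 and 14.08, 14.03 and 14.22 at day 0. It changed by -1.60, -1.68 and -1.93 at days 1, 3 and 7 (adjusted p = 0.0313, 0.014 and 0.00466, limma). Casq1, the other calsequestrin, changed by -2.24 at day 7. Mrvi1, which links inositol trisphosphate receptors to cyclic GMP kinase, changed by -2.12 and Jph2, a protein that joins the store to the cell membrane, by -1.90. The 2 genes that rose were Sln and Trdn.

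Of 17 tested genes of calcium and cation entry and extrusion (21 measured, 24 listed), 1 fell at day 1, 3 at day 3 and 5 at day 7, when 1 rose. Of all tested genes, 1.63%, 7.14% and 13.2% fell on these days and 12.1% rose at day 7, so the 1 rise is not above that share. Ano1, the calcium-activated chloride channel that depolarises smooth muscle, changed by -2.45 at day 7 (adjusted p = 0.0164, limma). Pkd1, polycystin, changed by -1.58, the potassium-dependent sodium-calcium exchanger Slc24a3 by -1.39 and the sodium-calcium exchanger Slc8a1 by -1.19 on that day. The gene that rose was Piezo1, a channel opened by stretch, named after its values were seen, at 0.47 (adjusted p = 0.0398).

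**Figure D5:**
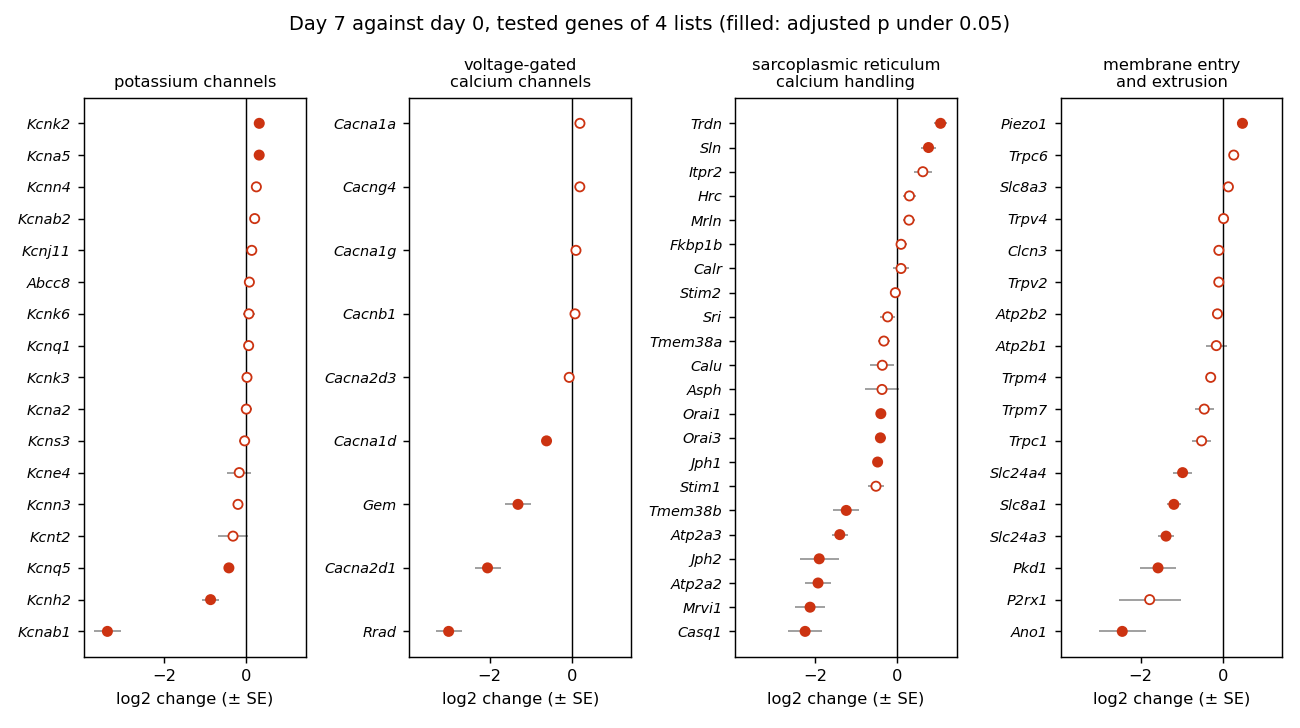
For each tested gene of 4 lists (rows), the plot gives the log2 change at day 7 against day 0 with its SE (horizontal axis), filled where limma's adjusted p was under 0.05. Kcnab1 (-3.38), Rrad (-2.99), Casq1 (-2.24) and Ano1 (-2.45) are lowest in their lists, and Trdn (1.05) and Sln (0.76) are highest in theirs.

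The genes whose signal ran most like a member's over the 12 arrays are given by Pearson r as a description, since the arrays share groups and signal over background. For Kcnmb1 they were the focal adhesion adaptor Tgfb1i1 (r = 0.993), the tetraspanin Tspan2 (r = 0.986) and Lpp (r = 0.985), which changed by -2.82, -3.23 and -3.86 at day 7. For Kcnma1 they were Map1b (r = 0.988), Plcb1 (r = 0.986) and Cox8a (r = 0.984). For Abcc9 they were Bmpr1a (r = 0.986), Ccnd2 (r = 0.986) and Nfia (r = 0.983), and for Kcnj8 they were Pde4b (r = 0.898), Phlda1 (r = 0.863) and Zfp111 (r = 0.832). Cacna1c ran with Ldlrad3 (r = 0.989), Niban1 (r = 0.989) and Thsd4 (r = 0.988), and Cacnb2 with Stimate (r = 0.993), Pnck (r = 0.990) and B3galnt2 (r = 0.984). The r of the nearest genes was lower for Ryr2 (Mob2, Epn2 and Plcb3, 0.957, 0.957 and 0.947), for Pln (Tmem86a, Iqcc and Clec7a, 0.921, 0.916 and 0.910) and for Casq2 (Sftpd, Col2a1 and Wdr4, 0.962, 0.957 and 0.954) than for the called channel genes.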

How the data were processed

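Signals were deposited by the authors on the log2 scale, 1 per transcript cluster. Affymetrix Expression Console is named as the tool by the submitters' processing notes. Its version, the background correction, the normalization and the build were not stated. The labels' design text names an earlier Affymetrix mouse array, while the identifiers in the table are transcript clusters of another design. Of 65956 clusters, 31258 had 1 gene symbol after older symbols were updated through RefSeq, 1492 had several and were left out, and 33206 had none and were not used. The 6732 control features served as quality signs. Where a gene had several clusters, the brightest on average was kept, and 22066 of 30702 genes passed the filter (3 of 12 arrays at the 40th percentile, 5.25).

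Genes were tested on the deposited log2 values in limma 3.58.1 (R 4.3.3) with a mean per group over all 12 arrays, empirical Bayes without trend and Benjamini-Hochberg adjustment over all tested genes, a call being an adjusted p under 0.05. The code was tested on simulated data. Differences between features on an array were compared by exact permutation (SciPy 1.17.1). The number of arrays limits the precision. The members, lists and tests were chosen with earlier results of these data known. All members are named; of each other list up to 4 genes called against day 0 with the largest change; and for each member the 3 most correlated genes, predicted and clone-like symbols passed over. Alternatives were another normalization, filter, gene summary, variance model, 2 covariates, the replicate number as a block, the 6 arrays compared alone, and leaving out each array. Replicate numbers are not stated to pair animals, and deviations of same-numbered arrays correlated at -0.51 to 0.66.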

Additional observations from a re-analysis of the deposited data

Results flagged for a closer look

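Signals of 3 of the 9 genes differed between day 7 and day 1 by the test of the difference in limma. Kcnmb1 was at 7.15, 6.42 and 8.13 at day 7 and at 9.35, 10.14 and 10.87 at day 1, a log2 change of -2.89. Without day 1 replicate 2 or 3 that call was lost (adjusted p up to 0.0815). Pln was at 7.27, 7.16 and 6.79 at day 7 and at 6.25, 5.89 and 6.15 at day 1, a change of 0.98. The call of Pln was lost in 6 of 12 fits that left out 1 array (adjusted p up to 0.11). Casq2 was at 5.92, 5.41 and 5.68 at day 7 and at 5.17, 5.04 and 4.88 at day 1, a change of 0.64 under the negative control median, and its call was lost in 8 of those 12 fits (adjusted p up to 0.131). It was tested only through arrays where it was high, so this call is not given as support.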

How the results depend on the processing

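Of 350 recomputed values of the 16 called changes, 295 kept their direction and call, 55 kept their direction and lost the call, and 0 changed direction. Calls were gained in 23 values: Abcc9 (6), Cacna1c (3), Cacnb2 (2) and Ryr2 (1) for day 7 against day 1, Cacnb2 (4) and Kcnma1 (3) at day 1, Kcnj8 (3) at day 7 and Kcnmb1 (1) for day 7 against day 3. Quantile normalization and centring kept the day 7 count at 7 with Kcnj8 in place of Casq2. Of the called changes, 14 of the 16 could be fitted under the 60th percentile filter, which Casq2 did not pass. The day 7 count of 7 stayed at 7 or 8 when any 1 array was left out and was 2 with the control feature covariate. The day 3 count of 5 was 3 to 5 with 1 array left out (3 without day 0 replicate 3 or day 3 replicate 3), 0 with the adipocyte covariate and 1 with the control feature covariate. The day 1 count of 1 was 0 to 3 with 1 array left out (3 without day 1 replicate 3, 2 without day 7 replicate 1, 0 without day 0 replicate 1 or 3 or day 1 replicate 1 or 2). It was 0 after quantile normalization, with centred arrays, with the adipocyte covariate and with the 6 arrays compared alone, and 2 with the 60th percentile filter, variance trend and control feature covariate. The replicate block gave 2 at day 1, where Cacnb2 was added (adjusted p = 0.0381), and changed no other member's call. The count of 3 for day 7 against day 1 was 0 to 6 with 1 array left out (6 without day 1 replicate 1, 0 without day 1 replicate 2 or 3), 7 with the adipocyte covariate, and 0 with the control feature covariate or the 6 arrays alone. Day 7 against day 3 gave 1 with the adipocyte covariate. The F test gave 3 to 7 with 1 array left out (4, 4 and 3 without day 0 replicates 1, 2 and 3) and 1 with the control feature covariate. Over all genes, calls ran from 0 to 1105 at day 1 (799 as reported), 45 to 4523 at day 3 (2593), 771 to 7471 at day 7 (5570), 1 to 378 for day 7 against day 3 (59), 2 to 4658 for day 7 against day 1 (1056) and 935 to 4308 in the F test (3217). The cause of these shifts was not tested.

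Some changes that were not called turned direction. With the adipocyte covariate Cacna1c (0.0342), Ryr2 (0.69) and Casq2 (-0.0416) did at day 1, Ryr2 (0.21) and Pln (-0.0496) at day 3, and Kcnma1 (-0.24) for day 7 against day 3. With the control feature covariate Ryr2 did at days 1, 3 and 7 (0.14, 0.0417 and 0.21), Casq2 at day 1 (-0.0803), Pln at day 3 (-0.10), Cacna1c and Ryr2 for day 7 against day 3 (0.0004 and 0.17) and Kcnma1 and Ryr2 for day 7 against day 1 (0.23 and 0.07). After quantile normalization and centring Pln did at day 3 (-0.12 and -0.17) and for day 3 against day 1 (-0.0171 and -0.0668), and Kcnma1 for day 7 against day 3 (-0.0492 and -0.0561). With 1 array left out, the range held both signs at day 1 for Pln (-0.163 to 0.0492), Ryr2 (-0.415 to 0.128) and Casq2 (-0.0253 to 0.117), and at day 3 for Pln (-0.151 to 0.172). It did so for day 3 against day 1 for Kcnj8 (-0.126 to 0.0232) and Pln (-0.0853 to 0.238), and for day 7 against day 3 for Ryr2 (-0.331 to 0.16), Kcnma1 (-0.22 to 0.429) and Cacna1c (-0.447 to 0.0056).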
